A study of Mus musculus with 12 samples.

Results

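The potassium channel genes of mouse CNS myelin were taken as every gene whose symbol starts with Kcn, continues with letters and then holds a digit. This rule found 94 of the 21937 genes in the table. By the family in each symbol they were sorted into 40 voltage-gated pore subunits, 15 inward rectifiers, 14 two-pore channels, 8 calcium- and sodium-activated channels, 16 auxiliary subunits and 1 noncoding transcript. RNA-Seq was performed on myelin enriched from the brains of wild-type male c57Bl6/N mice at postnatal day 18 (P18), postnatal day 75 (P75), 6 months and 24 months. Myelin was obtained as the light-weight membrane fraction of a sucrose density gradient, with 3 libraries per age, 12 in all. Individual brains are stated for the 6-month libraries, and where the replicates of an age are not stated to be separate mice, p-values measure the spread between libraries, which may be technical. No treatment or genetic change was applied at any age, and the labels separate the groups by age. The library names of each age carry consecutive numbers, and no preparation or sequencing batch is given. Age and any batch that went with it therefore cannot be told apart. Such a fraction also carries RNA of cells and axons attached to myelin, and no values of whole brain were analysed here.

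Potassium channels let potassium ions leave or enter a cell along their electrochemical gradient and set the resting potential and the shape and timing of action potentials. In white matter, voltage-gated Kv1 channels lie in the axonal membrane beneath the myelin sheath beside the paranode, Kv7 channels lie at nodes of Ranvier, and the inward rectifier Kir4.1 of astrocytes and oligodendrocytes takes up the potassium that active axons release. Two-pore channels carry leak currents, calcium- and sodium-activated channels, apart from Kcnu1, open with calcium or sodium inside the cell, and auxiliary subunits form no pore but alter the gating or transport of pore subunits.

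What joins the pore-forming classes is a short selectivity filter, the stretch of protein that strips potassium ions of water as they pass. The filter was searched as threonine or serine, any residue, glycine, then tyrosine, phenylalanine or leucine, and glycine, in the longest coding sequence of each gene in GENCODE vM1. All 77 pore-forming members held it at least once, and none of the 16 auxiliary subunits did. Each of the 14 two-pore channels held it 2 times in 1 chain, whereas 38 of 40 voltage-gated subunits, all 15 inward rectifiers and all 8 calcium- and sodium-activated channels held it 1 time. The sequences below, from the NCBIM37 (mm9) assembly, show the filter of a member of each pore-forming class, with the 5 codons of the filter in capitals. They are given 5′ to 3′ on the coding strand, from coding exons at chr6:126592240-126592266 (minus strand) for Kcna1, chr1:174299427-174299453 (plus strand) for Kcnj10, chr8:128549223-128549249 (plus strand) for the second filter of Kcnk1 and chr2:25749881-25749907 (plus strand) for Kcnt1. The first filter of Kcnk1 crosses an exon junction.
Kcna1: atgaccACTGTGGGATACGGTgacatg
Kcnj10: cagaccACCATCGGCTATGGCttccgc
Kcnk1, first filter: ctctccACCACAGGCTATGGCcacacg
Kcnk1, second filter: ctgagcACCATCGGCCTGGGGgactat
Kcnt1: ttctcaACTGTGGGCTTCGGTgatgtg

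The values are normalized read counts, that is reads counted per gene and divided by a size factor of the library, and are not corrected for gene length. Between 20299052 and 27214385 reads fell on genes in each library, and 85 to 90 of the 94 members had at least 1 read in a library. Members took 0.175 to 0.216% of these reads at P18, 0.24 to 0.249% at P75, 0.307 to 0.361% at 6 months and 0.29 to 0.341% at 24 months. Replicate 3 of P18 stood apart from the other P18 libraries, with a lower sum over 9 astrocyte markers (55754 against 75270 and 77816) and a higher sum over 8 forebrain neuron markers (15131 against 11272 and 11317). Of the markers of myelinating oligodendrocytes, Mbp had a mean of 3800543 at P18 and 1265436 to 1494402 at the other ages. From P18 to P75, 7 of 7 such markers fell, where 22.9% of all genes tested fell. By age from the youngest, neuronal markers summed to 188010 ± 19280, 214532 ± 14464, 186359 ± 2681 and 179488 ± 3772 (SD, n = 3), so transcripts of neurons were present at every age. In such bulk fractions, fewer cells or axons of a type and less RNA per cell cannot be told apart.

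As a group, potassium channel transcripts were lowest at P18 and higher in the adult. Their summed level was 46624 ± 2248 in P18 myelin, 54909 ± 972 in P75 myelin, 75133 ± 2786 at 6 months and 73511 ± 4199 at 24 months (SD, n = 3). All 3 libraries of 6 months and all 3 of 24 months lay above every younger library. The voltage-gated subunits carried most of this difference, at 16228 ± 1422, 23199 ± 194, 33905 ± 2155 and 35072 ± 2627 in the same order, whereas the auxiliary subunits stayed between 16135 and 18801.

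Each member was compared between ages with limma on log2(normalized read count + 1), and a gene was called at a Benjamini-Hochberg adjusted p under 0.1 over the 14634 genes whose mean reached 10. Changes are given as the log2 change ± SE. Of the 94 members, 75 passed this filter. From P18 to P75, 31 of 75 rose and 6 fell, where 25.9% of all genes tested rose and 22.9% fell. From P75 to 6 months, 56 rose and 7 fell, against 31.2% and 29.4% of all genes. From 6 to 24 months, 9 members were higher and 15 lower against 16.6% and 12.7% of all genes, and these counts changed with the libraries in the fit, to 15 higher and 17 lower with only the libraries of these ages, where 20.4% and 16.5% of all genes were called. Over the whole span from P18 to 24 months, which shares its libraries with the steps, 62 members rose and 6 fell against 34.7% and 34.3% of all genes.

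The median log2 change of the members was 0.27, 0.59, -0.03 and 0.86 in these 4 comparisons, beside 0.02, 0.01, 0.03 and -0.01 for all genes tested. Changes past 2-fold among the called members numbered 1 in the first step, 15 in the second and 29 over the whole span, all of them rises. In the last step there was 1, the fall of Kcng1. Of all 14634 genes tested, 665, 1362 and 2699 were called past 2-fold in the first step, the second and the whole span. Of these, 412, 776 and 2116 were rises. The last step held 246 such genes. The members did not exceed the share of all genes in the first or last step. The count of members called from 6 to 24 months rested on few libraries. Without replicate 1 of 24 months, 3 members were lower and without replicate 1 of 6 months 4 were, and without replicate 2 of 24 months, 3 were higher and without replicate 2 of 6 months 4 were. Without replicate 3 of P18, 36 members rose from P18 to P75 and 59 from P18 to 24 months, and 2 fell over the whole span. The 6 falls over the whole span likewise became 3 without replicate 2 of P18 and 2 without replicate 1 or replicate 2 of 24 months.

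**Figure D1:**
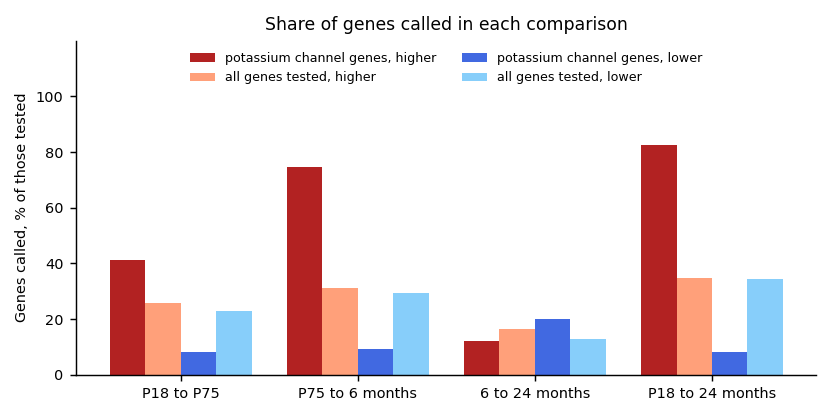
Share of potassium channel genes (75 tested) and of all genes tested (14634) that were higher or lower at the later age of each comparison (x axis), in % of those tested (y axis), by limma at an adjusted p under 0.1. From P75 to 6 months 74.7% of the members were higher against 31.2% of all genes, and from 6 to 24 months 12% were higher and 20% lower.

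The age of the highest mean was P18 for 3 tested members, P75 for 4, 6 months for 38 and 24 months for 30, beside 32.8%, 20%, 22.5% and 24.7% of all genes tested. The lowest mean was at P18 for 50 of 75 (66.7%), beside 33.6% of all genes tested. By their calls over the 3 steps, 20 members rose from P75 to 6 months and were called in no other step, 19 rose in both early steps, 10 rose from P75 to 6 months and then fell, and 4 fell, rose and fell in turn. Only 2 of the 75, Kcnc1 and Kcnq5, were called higher in all 3 steps. The share of all genes with each of these courses was not counted.

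**Figure D2:**
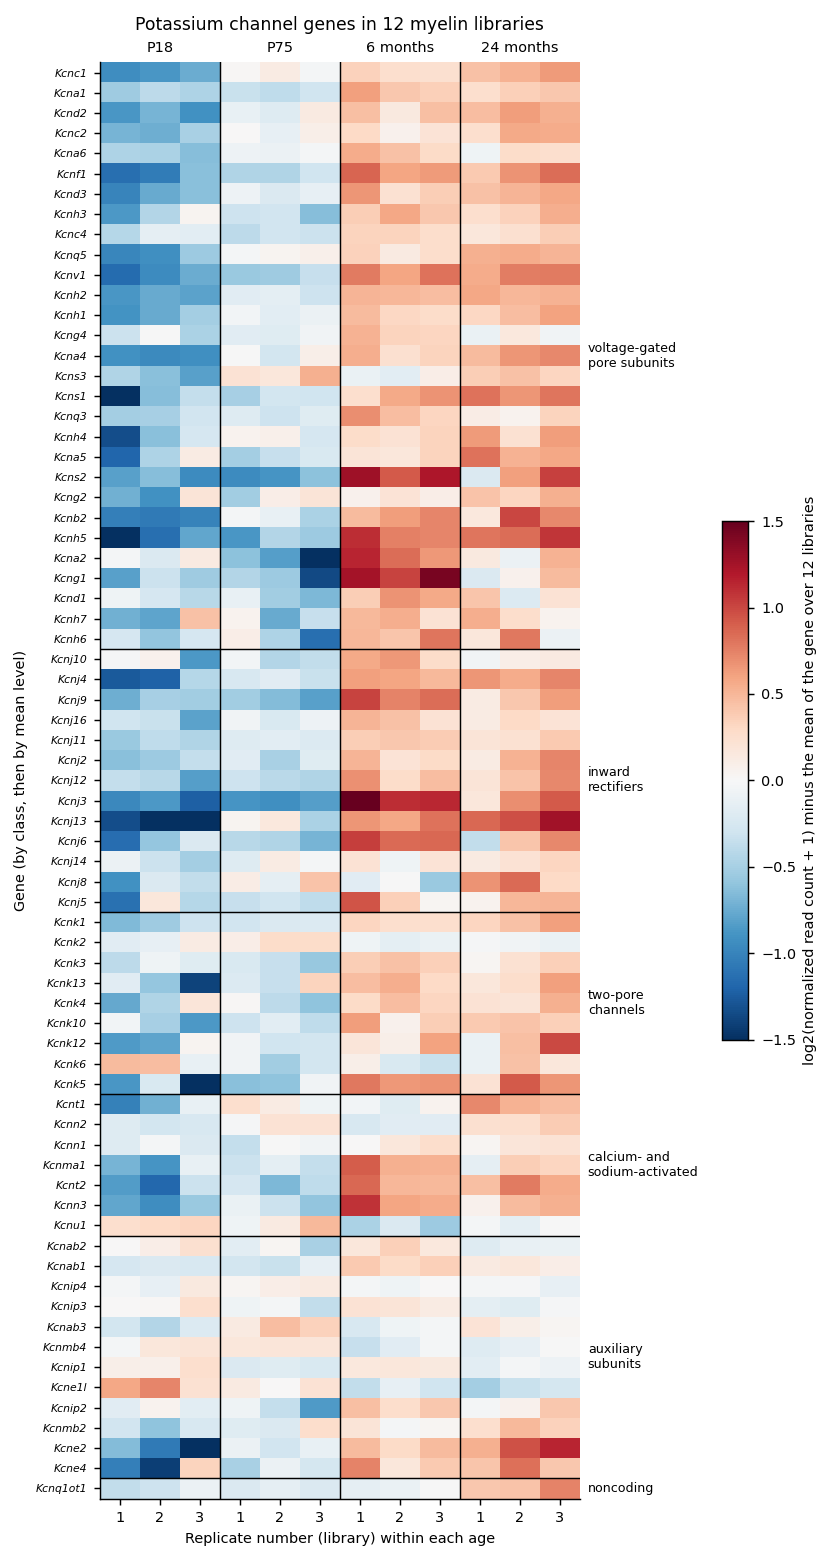
Level of tested members (rows, by class and then by mean level) in the 12 libraries (columns, by age and replicate number), as log2(normalized read count + 1) minus the mean of the gene over the libraries, with red above and blue below that mean. Most voltage-gated and inward rectifier rows turn from blue at P18 to red at 6 and 24 months, and most auxiliary rows stay pale, with Kcne2 and Kcne4 as exceptions.

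Among voltage-gated pore subunits, 33 of 40 were tested and 31 rose from P18 to 24 months, with none called lower. The rises were 93.9%, beside 34.7% higher and 34.3% lower among all genes tested. From P18 to P75, 18 were higher and 1 lower (54.5% and 3%, beside 25.9% and 22.9% of all genes). From P75 to 6 months, 28 were higher and 1 lower (84.8% and 3%, beside 31.2% and 29.4%). From 6 to 24 months, 5 were higher and 7 lower (15.2% and 21.2%, beside 16.6% and 12.7%). The median log2 change of the class was 0.46 from P18 to P75 and 0.69 from P75 to 6 months.

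Kcna1 (chr6:126586481-126595819, minus strand) encodes Kv1.1, a channel of the axon membrane beneath the sheath. Its normalized read counts were 1946, 2159 and 2043 at P18, 2247, 2165 and 2302 at P75, 4332, 3754 and 3625 at 6 months and 3353, 3632 and 3739.7 at 24 months. The P18 and P75 libraries lay close together, and every library of the 2 older ages lay above them. Kcna1 rose from P75 to 6 months (0.80 ± 0.09, adjusted p = 2.1e-06) and was not called from P18 to P75 (0.13 ± 0.09, adjusted p = 0.25) or from 6 to 24 months (-0.12 ± 0.09, adjusted p = 0.32).

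Kcna2, which encodes Kv1.2, the usual partner of Kv1.1 in the axon, was read at far lower counts. It had 42.8, 37.3 and 48.2 at P18, 28.1, 24.1 and 13.3 at P75, 97.5, 79.0 and 69.1 at 6 months and 48.5, 41.1 and 62.9 at 24 months. The P75 libraries were the lowest and the 6-month libraries the highest, and neither group overlapped a neighboring age. Kcna2 fell from P18 to P75 (-1.0 ± 0.25, adjusted p = 0.005), rose to 6 months (1.91 ± 0.25, adjusted p = 1.4e-05) and fell to 24 months (-0.68 ± 0.25, adjusted p = 0.067), although the last call was lost without either of 2 libraries at each age. It was the only voltage-gated subunit that fell from P18 to P75.

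Kcna4 encodes Kv1.4, a fast inactivating channel, and rose in both early steps. Its libraries gave 254, 247 and 252 at P18, 476, 397 and 511 at P75, 700.3, 564 and 604 at 6 months and 665, 759 and 788 at 24 months, which puts every P75 library above every P18 library and every 6-month library above those. The change was 0.87 ± 0.11 in the first step and 0.43 ± 0.11 in the second (log2 ± SE, adjusted p = 2.2e-05 and 0.0036). Kcna6, which encodes Kv1.6, had 1050.4, 1036 and 928 at P18, 1373, 1363 and 1414 at P75, 2122, 1964 and 1768 at 6 months and 1379, 1745 and 1725 at 24 months. It rose in both early steps (0.46 ± 0.10, adjusted p = 0.0015, then 0.49 ± 0.10, adjusted p = 0.00061) and fell from 6 to 24 months (-0.28 ± 0.10, adjusted p = 0.06), a call that was lost without replicate 1 or 2 of 6 months or replicate 1 of 24 months. Of the exon bases of Kcna6, 39.5% are shared with a noncoding gene on the other strand, and whether the counting used strand is not given in the sources used here. Kcna5 had a lowest library of 52.3 and a highest of 212, and rose from P75 to 6 months (0.59 ± 0.23, adjusted p = 0.04). Kcna3, Kcna7 and Kcna10 stayed below the filter, with at most 11.4 in any library.

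Kv3 channels allow neurons to fire at high rates. Kcnc1 (chr7:53651867-53693745, plus strand), which encodes Kv3.1, had the highest mean count over the 12 libraries of any voltage-gated subunit, although at P18 Kcna1 stood slightly higher. Its counts were 1832, 1919 and 2097 at P18, 3552, 3807 and 3423 at P75, 4452, 4161 and 4151 at 6 months and 4739, 5016 and 5468 at 24 months. The 4 ages did not overlap and stood in order of age. Kcnc1 rose in each step, most in the first (0.88 ± 0.08, adjusted p = 1.7e-06) and less in the second (0.24 ± 0.08, adjusted p = 0.023) and the third (0.25 ± 0.08, adjusted p = 0.047). The third call was lost when replicate 2 or 3 of either age was left out.

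Kcnc2 (Kv3.2) rose from P18 to P75 (0.63 ± 0.10, adjusted p = 0.00017), from 1261, 1234 and 1462 to 2054, 1889.6 and 2182. It held 2518, 2143 and 2366 at 6 months and 2452, 3045 and 3019.5 at 24 months, where the libraries overlapped and the call from 6 to 24 months (0.27 ± 0.10, adjusted p = 0.07) was lost without replicate 2 or 3 of either age. Kcnc4 (Kv3.4) rose in the second step only (0.64 ± 0.09, adjusted p = 2.4e-05). Per kilobase of exon, Kcnc4 made up 32.8% ± 1.41 of the Kv3 family at P18 and 23.5% ± 0.88 at P75, while Kcnc1 went from 24.6% ± 0.93 to 34.7% ± 1.27 (SD, n = 3).

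Kv4 channels carry the A-type current, which shapes the time between action potentials. Kcnd2 (Kv4.2) made up 74.9 to 77.1% of the family per kilobase at every age. Its counts were 1327, 1501 and 1295 at P18, 2255, 2132 and 2671 at P75, 3331, 2690.4 and 3327 at 6 months and 3376, 3768 and 3541 at 24 months. No P18 library came near those of P75, and no library of P75 reached those of 6 months. Kcnd2 rose in both early steps (0.77 ± 0.11, adjusted p = 3.7e-05, then 0.40 ± 0.11, adjusted p = 0.0041), as did Kcnd3, which encodes Kv4.3 (0.65 ± 0.11, adjusted p = 0.00024, then 0.56 ± 0.11, adjusted p = 0.00048). Kcnd1 (Kv4.1) held at most 52.4 in any library.

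Kv7 channels carry the M-current, a slow current that damps repeated firing. Kcnq3 (Kv7.3) had 91.5, 92.7 and 107 at P18, 114, 106 and 115 at P75, 213, 181 and 164 at 6 months and 142, 136 and 165 at 24 months. Kcnq3 was not called in the first step (0.20 ± 0.13, adjusted p = 0.24) and rose in the second (0.73 ± 0.13, adjusted p = 0.00028). It was called lower from 6 to 24 months (-0.33 ± 0.13, adjusted p = 0.09), with overlapping libraries, and that call was lost with the replicate block, with scaling to the same total, and without replicate 1 or 2 of P75, of 6 months or of 24 months. Per kilobase, Kcnq3 was 20.7% ± 1.32 of the Kv7 family at P18 and 20.4% ± 1.79 at 6 months, but 14.4% ± 0.98 at P75 and 14.4% ± 0.72 at 24 months (SD, n = 3). Kcnq5 (Kv7.5) rose in all 3 steps (0.84 ± 0.10, adjusted p = 1.5e-05, 0.22 ± 0.10, adjusted p = 0.083 and 0.28 ± 0.10, adjusted p = 0.062). Kcnq1 was below the filter.

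**Figure D3:**
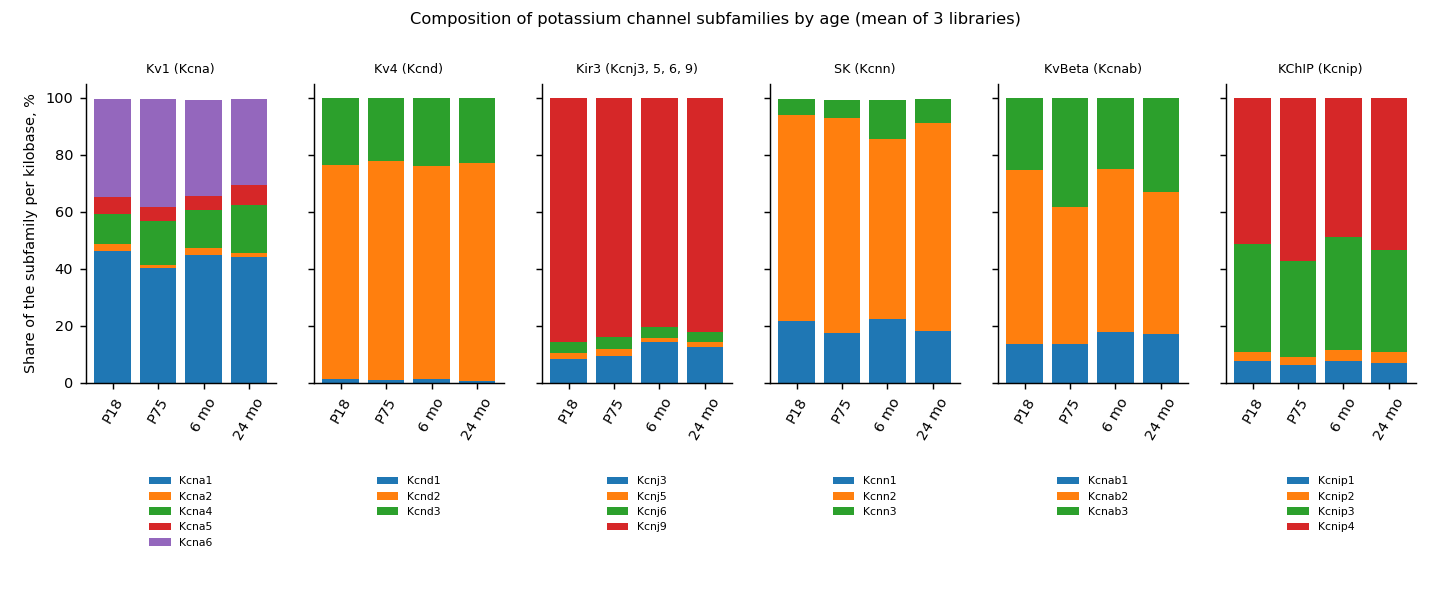
Share of each gene in its subfamily (y axis, in % of the summed normalized read count per kilobase of exon, mean of 3 libraries) at each age (x axis) for 6 subfamilies, with genes under 1% at every age left out. Kcnd2 makes up 74.9 to 77.1% of Kv4, Kcnj9 stays above 80% of Kir3, Kcnn3 is a larger share of SK at 6 months than at the other ages, and Kcnab3 is a larger share of KvBeta at P75 than at the other ages.

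Several subunits of the Kv5, Kv6, Kv8 and Kv9 families form no channel alone and join Kv2 subunits. The Kv2 gene Kcnb2, at 40.4, 39.5 and 41.2 at P18 and 93.1, 169 and 139 at 24 months, rose over the whole span (1.66 ± 0.19, adjusted p = 1.5e-06). Of the silent subunits, Kcnv1 rose by 1.65 ± 0.11 and Kcnf1 by 1.57 ± 0.13 from P18 to 24 months (log2 ± SE, adjusted p = 3.4e-09 and 3.9e-08). Kcns3 went from 149, 131 and 116 at P18 to 236, 229 and 294 at P75, 190.1, 182 and 218 at 6 months and 263, 277 and 255 at 24 months. It rose (0.94 ± 0.13, adjusted p = 3.9e-05), fell (-0.36 ± 0.13, adjusted p = 0.027) and rose again (0.43 ± 0.13, adjusted p = 0.029), and lost the second call without replicate 3 of P75 or replicate 2 of 6 months and the last without replicate 2 of either age.

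Kcns1 rose over the whole span (1.66 ± 0.24, adjusted p = 1.7e-05), from 44.0, 92.7 and 114 to 257, 230.3 and 254. Kcns2 and Kcng1 stood highest at 6 months. Kcns2 had 41.1, 42.6 and 52.0 at P75, 194, 152 and 187 at 6 months and 68.4, 123 and 164 at 24 months, and Kcng1 had 28.1, 26.0 and 14.4, 92.6, 78.1 and 104 and 32.7, 40.0 and 53.7 at these ages. Both rose from P75 to 6 months, by 1.95 ± 0.24 for Kcns2 and 2.0 ± 0.26 for Kcng1. The fall of Kcng1 to 24 months (-1.12 ± 0.26, adjusted p = 0.0086) separated all libraries of the 2 ages, and that of Kcns2 (-0.66 ± 0.24, adjusted p = 0.061) did not and was lost without replicate 1 or 3 of 6 months or replicate 1 or 2 of 24 months. Kcng4 followed the same course as Kcng1 (0.53 ± 0.11, adjusted p = 0.0011, then -0.39 ± 0.11, adjusted p = 0.028), Kcng2 was called only over the whole span (0.91 ± 0.24, adjusted p = 0.0033), and Kcng3 and Kcnv2 were below the filter.

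The ether-a-go-go related subunits (Kcnh) shape repolarization and firing. Kcnh2, which encodes Erg1, had 351, 379.6 and 366 at P18, 569, 579 and 517 at P75, 911, 902 and 881 at 6 months and 957, 904 and 920.1 at 24 months, so that its libraries kept close within an age. It rose in both early steps (0.60 ± 0.08, adjusted p = 3e-05, then 0.69 ± 0.08, adjusted p = 4.1e-06). Kcnh5 had the largest rise of any voltage-gated subunit over the whole span (2.05 ± 0.21, adjusted p = 3.6e-07), from 16.6, 22.6 and 29.1 at P18 to 89.2, 90.8 and 107 at 24 months. Kcnh1, Kcnh3, Kcnh4, Kcnh6 and Kcnh7 were also called higher over the whole span, with log2 changes from 0.64 for Kcnh7 to 1.23 for Kcnh4, and Kcnh8 was below the filter.

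Among inward rectifiers, 13 of 15 were tested, 12 rose from P18 to 24 months and none fell in either early step. The rises over the whole span were 92.3%, beside 34.7% of all genes tested. The first step held 5 rises and the second 11 (38.5% and 84.6%, beside 25.9% and 31.2% of all genes). Falls among all genes were 22.9% and 29.4% in these steps. The last step held 1 rise and 3 falls (7.7% and 23.1%, beside 16.6% and 12.7% of all genes). By age from the youngest, the class summed to 6752 ± 1144, 7376 ± 684, 13056 ± 1144 and 10856 ± 868 (SD, n = 3).

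Kcnj10 (chr1:174271341-174304216, plus strand), which encodes Kir4.1, had the highest counts of the class at each age and was the third of the members per kilobase in the mean over the 12 libraries. Its counts were 4689, 4965 and 2608 at P18, 4617, 3508 and 3682 at P75, 7026, 7436 and 5732 at 6 months and 4577, 5086 and 5231 at 24 months. Replicate 3 of P18 lay far below the other 2 P18 libraries, and the 6-month libraries lay above all others. Kcnj10 rose from P75 to 6 months (0.78 ± 0.19, adjusted p = 0.0023), and no other step was called (-0.01 ± 0.19, adjusted p = 0.98 from P18 to P75 and -0.43 ± 0.19, adjusted p = 0.11 from 6 to 24 months). Without replicate 3 of P18, the change from P18 to P75 was -0.30 on the log2 scale and was called lower, and the change from 6 to 24 months became called at -0.43. Over the same step in which Kcnj10 rose, 3 of 9 astrocyte markers rose and 1 fell, and these markers summed to 63838 to 74838 at P75 and 76924 to 87713 at 6 months. Of the 7 markers of myelinating oligodendrocytes, 2 rose and none fell in that step, where 31.2% of all genes tested rose and 29.4% fell. The sums of these 7, which Mbp dominates, were 1266818 to 1840606 and 1350636 to 2363853. The part of astrocytes and oligodendrocytes in the result was not tested.

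Kcnj16 encodes Kir5.1, which joins Kir4.1 in mixed channels. It had 579.9, 566 and 409.8 at P18, 686, 610.1 and 677 at P75, 1016, 970.2 and 827 at 6 months and 779.6, 879 and 827 at 24 months. Kcnj16 rose from P18 to P75 (0.36 ± 0.12, adjusted p = 0.027), a call lost without replicate 3 of P18 at 0.20, and rose again to 6 months (0.51 ± 0.12, adjusted p = 0.0024). Per kilobase, it made up between 15.3% (P18) and 18.8% (P75) of the sum of Kcnj10, Kcnj15 and Kcnj16.

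G-protein-gated Kir3 channels open on signals from inhibitory receptors. Kcnj9 (Kir3.3; chr1:174251164-174259394, minus strand) had 406, 476 and 469 at P18, 468, 428 and 381 at P75, 1363, 1133 and 1208 at 6 months and 733, 889 and 1038 at 24 months. The first 2 ages overlapped, all 6-month libraries lay above all others and the 24-month libraries lay between. It rose (1.53 ± 0.12, adjusted p = 1.7e-07) and then fell (-0.49 ± 0.12, adjusted p = 0.013), and stayed above its P18 level at 24 months (0.96 ± 0.12, adjusted p = 4e-06). Kcnj3 (Kir3.1) had the largest change of any tested member from P75 to 6 months, from 75.2, 73.2 and 78.5 to 441, 304 and 307 (2.18 ± 0.19, adjusted p = 2.9e-07). At 24 months it stood at 158, 227 and 267, below every 6-month library (-0.70 ± 0.19, adjusted p = 0.017), and 31.1% of its exon bases are shared with another annotated gene. Kcnj6 (Kir3.2) rose from 42.1, 40.8 and 34.3 to 117, 102 and 103 (1.44 ± 0.26, adjusted p = 0.00023), and its fall to 43.6, 75.7 and 93.5 (-0.66 ± 0.26, adjusted p = 0.082) was lost without any 1 of 5 libraries of these ages. Kcnj5 (Kir3.4) rose in the same step at lower counts (0.79 ± 0.32, adjusted p = 0.046).

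Kir2 channels hold the resting potential of neurons and muscle. Kcnj4 (Kir2.3) had 566, 584 and 1003 at P18, 1145, 1202 and 1077 at P75, 2075, 2050.4 and 1894 at 6 months and 2147, 1996 and 2252 at 24 months, with replicate 3 the highest of P18. It rose in both early steps (0.72 ± 0.15, adjusted p = 0.0015, then 0.81 ± 0.15, adjusted p = 0.00037) and was not called beyond (0.09 ± 0.15, adjusted p = 0.73). Kcnj2 (Kir2.1) and Kcnj12 (Kir2.2) rose from P75 to 6 months, by 0.61 ± 0.14 and 0.87 ± 0.15, and Kcnj14 (Kir2.4) was called only over the whole span (0.53 ± 0.17, adjusted p = 0.01). Of the pore subunits of ATP-sensitive channels, Kcnj11 (Kir6.2) rose in both early steps (0.28 ± 0.09, adjusted p = 0.018, then 0.57 ± 0.09, adjusted p = 5.1e-05). Kcnj8 (Kir6.1), a channel of vascular mural cells, had 14.3, 23.7 and 21.1 at P18, 30.1, 25.0 and 37.6 at P75, 24.4, 27.5 and 18.5 at 6 months and 44.6, 50.8 and 34.2 at 24 months, and rose in the first step (0.63 ± 0.26, adjusted p = 0.057) and the last (0.85 ± 0.26, adjusted p = 0.029).

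Kcnj13 encodes Kir7.1, a channel of the choroid plexus epithelium, and had the largest rise of any member over the whole span. Its counts were 46.3, 39.5 and 29.1 at P18, 121, 133 and 85.1 at P75, 188, 178 and 208 at 6 months and 216, 232 and 284 at 24 months. The 4 ages did not overlap. It rose in both early steps (1.53 ± 0.19, adjusted p = 1.4e-05, then 0.77 ± 0.19, adjusted p = 0.0025), and over the whole span by 2.65 ± 0.19 (adjusted p = 6.1e-09). Kcne2, an auxiliary subunit that is abundant in the same epithelium, went from 55.9, 41.8 and 27.1 at P18 to 83.2, 72.3 and 81.8 at P75, 123, 108 and 124 at 6 months and 129, 173 and 197 at 24 months, and rose by 2.01 ± 0.22 (log2 ± SE, adjusted p = 6e-07). Of 6 choroid plexus markers, all 6 rose from P18 to 24 months, where 34.7% of all genes tested rose and 34.3% fell. Their sum, which Ttr dominates, was 12638 to 14723 at P18, 23519 to 28868 at P75, 27464 to 31823 at 6 months and 42615 to 47312 at 24 months. The part of these cells in the rise of Kcnj13 and Kcne2 was not tested, and 49.1% of the exon bases of Kcnj13 are shared with Gigyf2 on the other strand.

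**Figure D4:**
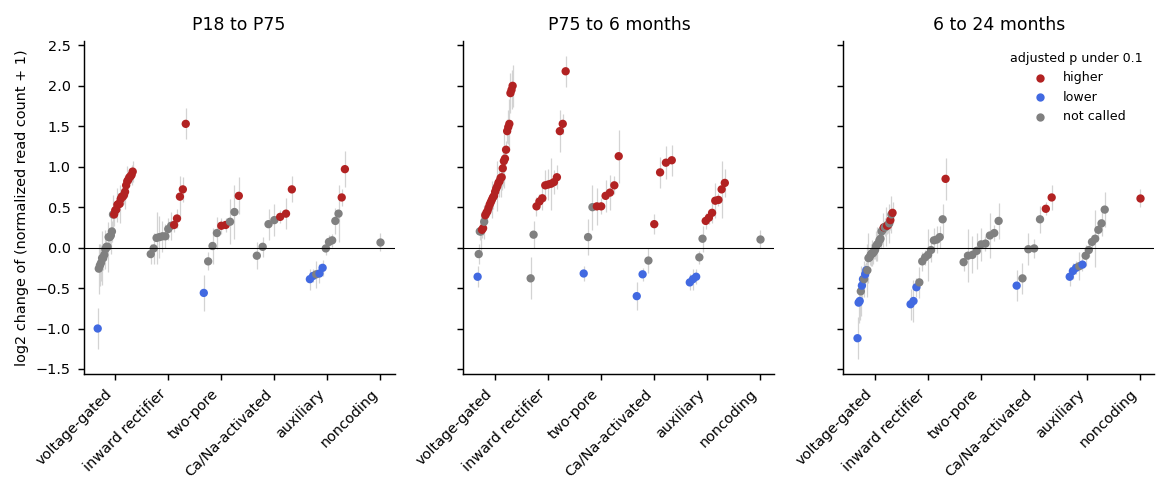
Log2 change of (normalized read count + 1) of each tested member (points, with SE as bars) in the 3 steps between ages, by class along the x axis and sorted within a class, in red where higher, blue where lower and gray where not called by limma at an adjusted p under 0.1. The largest rise is 2.18 for Kcnj3 from P75 to 6 months, and the blue points of the last step lie among voltage-gated, inward rectifier, calcium-activated and auxiliary members.

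Two-pore channels were tested for 9 of 14 genes, and 7 rose from P18 to 24 months with none lower. The rises were 77.8%, beside 34.7% higher and 34.3% lower among all genes tested. None was called in either direction from 6 to 24 months, where 16.6% of all genes were higher and 12.7% lower. Kcnk1 (chr8:128519002-128554583, plus strand), which encodes TWIK-1, was the highest of all members per kilobase of exon in the mean over the 12 libraries. It stood at 837 ± 102 per kilobase at P18, below Kcnab2 (1134 ± 92.1) and Kcnip4 (897 ± 87), and at 1627 ± 174 at 24 months (SD, n = 3). Its counts were 1722, 1873 and 2183 at P18, 2227, 2340.2 and 2361 at P75, 3409, 3244 and 3244 at 6 months and 3384, 3672 and 4175 at 24 months. All P75 libraries lay above those of P18, and all older libraries above those of P75. Kcnk1 rose in both early steps (0.27 ± 0.10, adjusted p = 0.035, then 0.51 ± 0.10, adjusted p = 0.00033), and the first call was lost without replicate 1 of P18.

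Kcnk2, which encodes the mechanically gated TREK-1, stood highest at P75. It had 952, 982 and 1162 at P18, 1149, 1296 and 1297 at P75, 1019.6, 965 and 1000.4 at 6 months and 1053, 1035 and 1002 at 24 months. The P18 and P75 libraries overlapped by 1 library. It rose (0.28 ± 0.09, adjusted p = 0.019) and fell (-0.32 ± 0.09, adjusted p = 0.0055), and its change over the whole span was 0.00 ± 0.09. Kcnk3, which encodes the acid-sensitive TASK-1, rose from P75 to 6 months (0.77 ± 0.11, adjusted p = 4.3e-05), where its libraries went from 416, 381 and 328 to 626, 661 and 621.

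Kcnk13 encodes THIK-1, the main leak channel of microglia. It had 267, 200 and 115 at P18, 259.6, 236 and 378 at P75, 415, 439 and 371 at 6 months and 337, 362 and 460.1 at 24 months, and the libraries overlapped between neighboring ages. It rose over the whole span (1.06 ± 0.23, adjusted p = 0.00088), whereas the calls of its early steps (0.64 ± 0.23, adjusted p = 0.039 and 0.51 ± 0.23, adjusted p = 0.076) were each lost without 1 library, the first without replicate 3 of P18 or of P75 and the second without replicate 1 or 2 of either age. Of 7 microglia markers, 6 rose over the whole span and none fell, where 34.7% of all genes tested rose and 34.3% fell. The sum of these markers was 2905 to 3697 at P18 and 6258 to 7420 at 24 months. Their part in the result was not tested. Kcnk4, Kcnk5 and Kcnk10 rose from P75 to 6 months, by 0.68, 1.13 and 0.64 on the log2 scale, and Kcnk12 over the whole span (0.98 ± 0.28, adjusted p = 0.0056). Kcnk6 was the one member of the class that fell from P18 to P75 (-0.56 ± 0.22, adjusted p = 0.051), with overlapping libraries of 64.2, 63.3 and 42.2 and 44.1, 31.5 and 37.6, and this call was lost without replicate 1 or 2 of P18 or replicate 2 of P75.

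**Figure D5:**
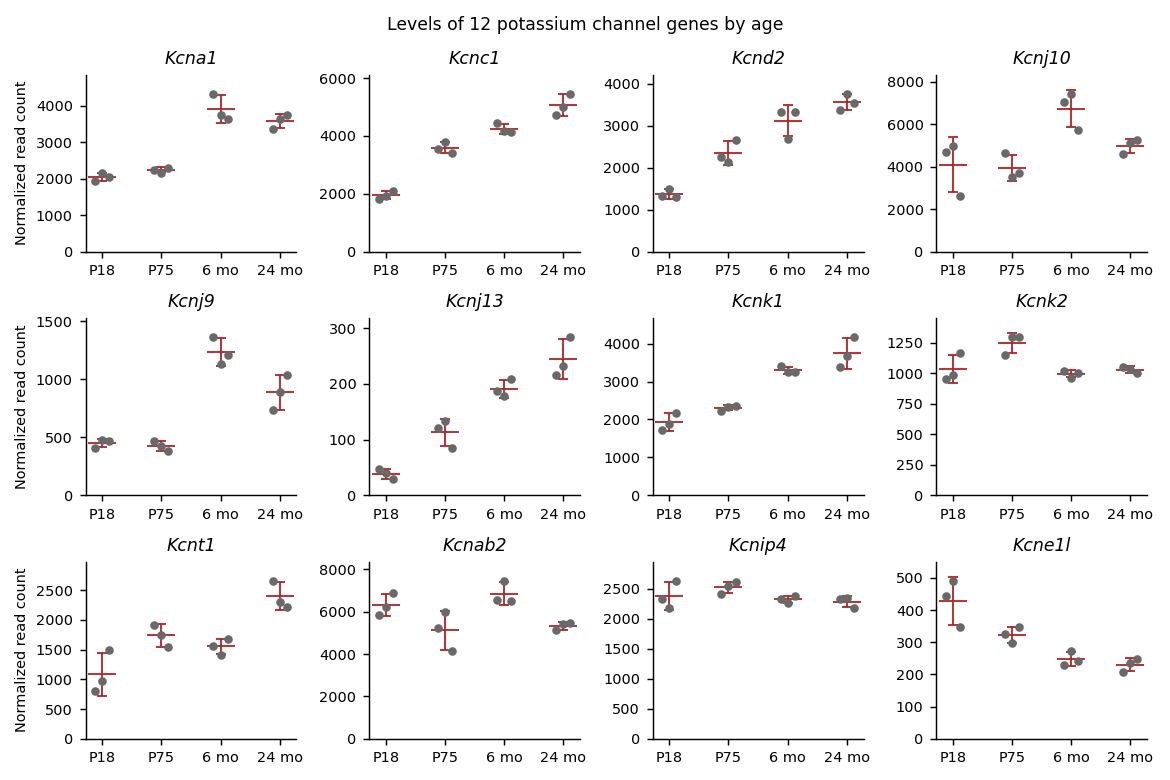
Normalized read count (y axes, from 0) of 12 members by age (x axes), with each library as a gray point and the mean ± SD of 3 libraries in red. Kcna1 and Kcnj9 step up between P75 and 6 months, the means of Kcnc1 and Kcnj13 are higher at each later age, Kcnk2 is highest at P75, and Kcne1l goes down.

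Calcium- and sodium-activated channels were tested for 7 of 8 genes. From P18 to 24 months 6 rose and 1 fell (85.7% and 14.3%, beside 34.7% and 34.3% of all genes tested). The last step brought 2 rises and 1 fall (28.6% and 14.3%, beside 16.6% and 12.7% of all genes). Kcnt1 (chr2:25719315-25773793, plus strand), which encodes the sodium-activated channel Slack, had 796, 976 and 1488 at P18, 1923, 1753 and 1544 at P75, 1569, 1417 and 1678 at 6 months and 2663, 2309 and 2215 at 24 months. Every 24-month library lay above all others, and the P75 and 6-month libraries overlapped. Kcnt1 rose in the first step (0.72 ± 0.16, adjusted p = 0.0022) and in the last (0.62 ± 0.16, adjusted p = 0.016), and not between them (-0.16 ± 0.16, adjusted p = 0.42). The related Kcnt2 (Slick) rose from P75 to 6 months (1.05 ± 0.20, adjusted p = 0.00033).

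Kcnn2 encodes SK2, a small-conductance channel behind the afterhyperpolarization of neurons. It had 784, 739 and 760.4 at P18, 889, 1043 and 1042 at P75, 763, 798 and 797 at 6 months and 1062, 1067 and 1168 at 24 months. It rose (0.38 ± 0.08, adjusted p = 0.002), fell (-0.33 ± 0.08, adjusted p = 0.0035) and rose again (0.48 ± 0.08, adjusted p = 0.002), and in none of the steps did the libraries overlap. Kcnn1 (SK1) was called higher from P75 to 6 months (0.29 ± 0.12, adjusted p = 0.048), a call lost without replicate 1 of P75 or replicate 2 or 3 of 6 months, and Kcnn3 (SK3) rose by 1.08 ± 0.19 in this step (adjusted p = 0.00019). Per kilobase, Kcnn3 made up 6.09% ± 1.5 of the SK family at P75 and 13.6% ± 3.02 at 6 months.

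Kcnma1 encodes the pore of the large-conductance BK channel. It had 89.1, 78.0 and 135 at P18, 116, 132 and 113 at P75, 273, 211 and 209 at 6 months and 133, 188 and 181 at 24 months. Kcnma1 rose from P75 to 6 months (0.93 ± 0.19, adjusted p = 0.00065), and its fall to 24 months (-0.47 ± 0.19, adjusted p = 0.089) was lost under many of the leave-one-out fits, including those without any library of 24 months in turn. Kcnmb4, the neuronal auxiliary subunit of BK, went the other way in the same step. It had 885, 889 and 891 at P75 and 619, 700.3 and 769.7 at 6 months and fell by 0.36 ± 0.09 (log2 ± SE, adjusted p = 0.0046), although 31.5% of its exon bases are shared with other annotated genes. Kcnu1, a BK relative of sperm that opens with voltage and a rising internal pH, fell from 63.1, 72.3 and 92.9 to 47.1, 56.8 and 44.8 in that step (-0.60 ± 0.17, adjusted p = 0.0064).

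The auxiliary subunits moved in both directions. Of 16, 12 were tested, and 5 rose and 5 fell from P18 to 24 months. This is 41.7% each way, beside 34.7% higher and 34.3% lower among all genes tested. From P18 to P75, 2 rose and 4 fell (16.7% and 33.3%, beside 25.9% and 22.9% of all genes). From P75 to 6 months 7 rose and 3 fell (58.3% and 25%, beside 31.2% and 29.4%). From 6 to 24 months none rose and 4 fell (33.3% lower, beside 16.6% higher and 12.7% lower among all genes). Their median log2 change over the whole span was 0.09, beside 1.10 for the voltage-gated pore subunits and 0.96 for the inward rectifiers. With every library scaled to the same total, 1 of the 75 members was called lower from P18 to P75, Kcna2, and the early falls of the auxiliary subunits were not called. Under the same scaling, 1 of the 75 members was called lower from P18 to 24 months in place of 6, so most of the falls over the whole span were not called either.

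Kcnab2 (chr4:151764851-151851980, minus strand) encodes KvBeta2, the cytoplasmic partner that brings Kv1 channels to the axon, and had the highest counts of all members. It had 5858, 6239 and 6875 at P18, 5237, 5977 and 4154 at P75, 6563, 7468 and 6521 at 6 months and 5119.7, 5415 and 5458 at 24 months. The P75 libraries were spread widely and overlapped with P18, and the 24-month libraries were close together and below those of 6 months. Kcnab2 fell (-0.32 ± 0.12, adjusted p = 0.038), rose (0.43 ± 0.12, adjusted p = 0.005) and fell (-0.36 ± 0.12, adjusted p = 0.04), with the first call lost without replicate 3 of P75 and the last without replicate 2 of 6 months or replicate 1 of 24 months.

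Kcnab1 (KvBeta1) had 2165, 2212 and 2171 at P18, 2119, 2045 and 2360.2 at P75, 3386, 3139 and 3287 at 6 months and 2820.4, 2884 and 2749 at 24 months. It rose from P75 to 6 months (0.59 ± 0.08, adjusted p = 1.2e-05) and fell to 24 months (-0.21 ± 0.08, adjusted p = 0.058), with no overlap between the libraries in either step. The fall was lost with scaling to the same total, and without replicate 1 or 3 of 6 months or without any 1 library of 24 months. Kcnab3 (KvBeta3) rose from P18 to P75 (0.62 ± 0.10, adjusted p = 0.00014) and fell to 6 months (-0.43 ± 0.10, adjusted p = 0.0018), at counts of 1377, 1226 and 1447, then 1831, 2303 and 2117, then 1409, 1592 and 1636. Per kilobase, Kcnab3 was 25.4% ± 1.62 of the KvBeta family at P18 and 25.1% ± 1.6 at 6 months, but 38.4% ± 3.51 at P75 and 32.9% ± 1.95 at 24 months, and Kcnab2 was the largest member at each age.

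The KChIP proteins (Kcnip) bind calcium and bring Kv4 channels to the membrane. Kcnip4 had 2322, 2183 and 2634 at P18, 2418, 2547 and 2602 at P75, 2328, 2266 and 2376 at 6 months and 2325, 2351 and 2177 at 24 months. No comparison of Kcnip4 was called, and the change over the whole span was -0.06 ± 0.08, while Kcnd2 rose by 1.37 ± 0.11 over the same span (adjusted p = 1.4e-08). Kcnip3, also known as calsenilin, had 2239.9, 2242 and 2652 at P18, 2129, 2183 and 1719 at P75, 2572, 2546 and 2412 at 6 months and 2002, 1967 and 2187 at 24 months. It was called lower (-0.25 ± 0.10, adjusted p = 0.058), higher (0.33 ± 0.10, adjusted p = 0.011) and lower (-0.29 ± 0.10, adjusted p = 0.049), and the first call was lost without replicate 3 of P18 or of P75 and the last without replicate 1 or 2 of either age. Kcnip1 followed the same order, with 790.2, 784 and 891, then 643, 656 and 638, 835, 837 and 823 and 667, 729 and 708, and no overlap in any step. Summed per kilobase, the KChIP genes held 1754 ± 159 at P18 and 1617 ± 11.5 at 24 months, while the Kv4 genes held 356 ± 23.7 and 903 ± 41.7.

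Kcne1l, a small membrane subunit encoded on the X chromosome (chrX:138739295-138740837, minus strand), had the largest fall of any tested member over the whole span. It had 444, 492 and 348 at P18, 327, 297 and 346 at P75, 229.9, 272 and 240.4 at 6 months and 208, 236 and 247 at 24 months. No P75 library reached the lowest of P18, and the libraries of 6 and 24 months overlapped. It fell in both early steps (-0.39 ± 0.13, adjusted p = 0.022, then -0.39 ± 0.13, adjusted p = 0.018), with the first call lost without replicate 2 of P18, and over the whole span (-0.88 ± 0.13, adjusted p = 1.7e-05). Of the other auxiliary subunits, Kcnip2 and Kcne4 rose from P75 to 6 months, by 0.80 and 0.72 on the log2 scale, and Kcnmb2 rose over the whole span (0.74 ± 0.16, adjusted p = 0.00067).

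Kcnq1ot1, a long noncoding transcript from the Kcnq1 locus, matched the rule by its symbol and encodes no channel. It had 389.8, 408 and 477 at P18, 435, 459 and 436 at P75, 459.8, 470.4 and 505 at 6 months and 667, 682 and 849.8 at 24 months. All 24-month libraries lay above all younger ones, and the transcript rose from 6 to 24 months (0.61 ± 0.11, adjusted p = 0.002).

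The 19 members below the filter were not tested. Kcnj1, a channel of the kidney, and Kcnk16, a channel of the pancreas, were at 0 in all 12 libraries, which allows up to 3 reads in a library by counting error. The others were the voltage-gated Kcna3, Kcna7, Kcna10, Kcng3, Kcnh8, Kcnq1 and Kcnv2, the inward rectifier Kcnj15, the two-pore channels Kcnk7, Kcnk9, Kcnk15 and Kcnk18, the calcium-activated Kcnn4 and the auxiliary Kcne1, Kcne3, Kcnmb1 and Kcnmb3. Their highest library held from 1.98 (Kcna7) to 34.1 (Kcnk9). Kcnk9, which encodes TASK-3, had 1.19, 3.39 and 5.02 at P18, 3.01, 1.85 and 2.21 at P75, 34.1, 13.3 and 22.4 at 6 months and 7.93, 5.41 and 9.26 at 24 months, from 119 reads in all.

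Other proteins that bind potassium channels were taken as a list of 24 genes, of which 22 were tested. From P18 to P75 10 rose and 4 fell, from P75 to 6 months 14 rose and 1 fell, from 6 to 24 months 3 rose and 3 fell, and over the whole span 12 rose and 6 fell. In the last step this is 13.6% each way, beside 16.6% higher and 12.7% lower among all genes. The early steps held 45.5% and 63.6% rises beside 25.9% and 31.2% of all genes, and 18.2% and 4.5% falls beside 22.9% and 29.4%, and the whole span 54.5% rises and 27.3% falls beside 34.7% and 34.3%. The Kv4 partners Dpp6 and Dpp10 were among those that rose, Dpp10 in all 3 steps (0.96 ± 0.10, adjusted p = 3e-06, 0.58 ± 0.10, adjusted p = 0.00014 and 0.32 ± 0.10, adjusted p = 0.034) and Dpp6 from P75 to 6 months (1.28 ± 0.11, adjusted p = 2.9e-07). Cntn2, an adhesion protein that holds Kv1 channels beneath the sheath, rose from a mean of 961 at P18 to 1715 at P75 (0.84 ± 0.13, adjusted p = 8.5e-05) and 2621 at 6 months (0.61 ± 0.13, adjusted p = 0.00079). Amigo1, an auxiliary protein of Kv2 channels, rose in both early steps, by 0.90 and 0.51 on the log2 scale. Abcc8, the sulfonylurea receptor that joins Kir6.2, rose in all 3 steps and over the whole span by 1.68.

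Several scaffolds fell from P18 to P75. Dlg4, which encodes PSD-95, fell from a mean of 14699 at P18 to 8494 at P75 (-0.80 ± 0.11, adjusted p = 4.6e-05) and 7303 at 24 months. Dlg2 fell from P18 to P75 and from 6 to 24 months, by 0.51 and 0.43 on the log2 scale, with Akap5, an anchor of kinases near Kv7 channels, falling by 0.55 and 0.40 in the same steps, and both rose between them, by 0.25 for Dlg2 and 0.27 for Akap5. Adam23, a membrane partner of Lgi1 near Kv1 channels, rose in all 3 steps and over the whole span by 1.29.

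Neuronal markers did not all take the course of the channel genes. From P75 to 6 months, when 56 of 75 members rose, 7 of 11 neuronal markers rose and 3 fell. This is 63.6% and 27.3%, beside 31.2% and 29.4% of all genes tested. The sum of the markers was between 201071 and 229825 in the P75 libraries and between 184468 and 189427 in those of 6 months. The largest rise among the markers was that of Syt1, a synaptic vesicle protein, from a mean of 3851 to 19472. Snap25, which has the highest counts of the list, fell from 141430 to 88328. That fall is larger than the fall of the mean sum, from 214532 to 186359, so the sum does not describe the other markers. From P18 to P75, 3 of 11 rose and 4 fell (27.3% and 36.4%, beside 25.9% and 22.9% of all genes tested). None of the 11 was at 0 in every library, and the part of neuronal RNA in the changes of the channel genes was not tested. Of the region lists, 3 of 8 forebrain and 2 of 7 hindbrain markers rose from P75 to 6 months, and 3 and 2 fell. This is 37.5% and 28.6% each way, beside 31.2% higher and 29.4% lower among all genes tested.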

How the data were processed

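Myelin RNA of 12 libraries was analysed, 3 for each of the ages P18, P75, 6 months and 24 months, grouped by the labels. The deposited signal is a normalized read count: the authors aligned reads to mm9 with TopHat2, counted them per gene with HTSeq and divided counts by DESeq size factors, with versions 2.0.8 of TopHat2 and 0.5.4p1 of HTSeq in the submitters' processing notes. The annotation and strand setting of the counting are not given in the sources used here. Whole reads were recovered for at least 99.99% of values of a library (within 0.1 read), giving 20299052 to 27214385 reads on genes.

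Ages were compared with limma 3.58.1 (R 4.3.3; trend, empirical Bayes, two-sided) on log2(normalized read count + 1), in 1 fit of all libraries with age alone, over 14634 genes whose mean reached 10, and called at a Benjamini-Hochberg adjusted p under 0.1, the rate of the study's methods. Changes are on this scale, which understates those of low genes. Alternatives were edgeR 4.0.16 and DESeq2 1.42.0 on recovered reads, other pseudocounts, filters, scalings and libraries, and a replicate block. Libraries of the same number correlated by 0.101 to 0.187 (deviations from the age means) between P75 and 6 months. The labels tie no number to an animal or batch, so no pairing by design is known. The replicate block alone used these numbers, and the reported values did not. On data simulated for P18 to P75 (14634 genes), all 3 tools found 100% of 200 genes changed 3-fold. At most 28 (limma), 25 (edgeR) and 49 (DESeq2) other genes were called. The changed genes were drawn above a minimum count and all genes had the same small spread. Smaller changes, genes with few reads and wider spreads were therefore not tried.

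Members, classes, partners and marker lists were chosen with earlier results of these data known. Named were members with known roles in glia, axons, neurons or choroid plexus, the 4 highest of each class, the 5 largest rises and falls of each comparison (mean of at least 50 at 1 age), and the 3 largest changes of partners each way. Other members were named after their values were seen, to describe their families. The results of some genes are not reported here. Positions and exon lengths are from GENCODE vM1 (NCBIM37), which held 91 of the 94 symbols once. Figures used Python 3.11.15 with matplotlib 3.10.9.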

Additional observations from a re-analysis of the deposited data

How the results depend on the processing

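No gene chosen by the naming rule changed direction in a called comparison under any alternative run: over 43 such potassium channel genes in 4 comparisons (172 values), 3583 of 3791 alternative values kept their side of the threshold, 168 lost the call and 40 gained it. The counts of potassium channel genes called higher from P75 to 6 months (51 to 58 with 1 library left out) and from P18 to 24 months (57 to 62) stayed within 1.5 times the reported ones. The counts from 6 to 24 months did not: 5 were higher and 7 lower without the filter, 15 higher with only the libraries of these ages, 5 higher with every library scaled to the same total, and 8 lower at a false discovery rate of 0.05. Scaling to the same total left 1 lower from P18 to P75 and 1 lower from P18 to 24 months, and moved the median of all genes from P18 to P75 to 0.139 (log2) and of the potassium channel genes to 0.395. Without the filter 3 were lower from P18 to P75, and at a rate of 0.05, 2 were lower from P18 to 24 months. Leaving out 1 library in turn gave 3 to 13 higher and 3 to 16 lower from 6 to 24 months, 25 to 36 higher and 4 to 7 lower from P18 to P75, and 2 to 6 lower from P18 to 24 months. Besides the fewer libraries or other genes these settings hold by construction, the cause was not tested. With the replicate block, 56 were higher and 7 lower from P75 to 6 months. With the block in a fit of only the libraries of these ages, added after seeing the data, 59 and 7 were. In the other comparisons libraries of the same number correlated by -0.213 to 0.029. The block gave 30 higher from P18 to P75, 62 from P18 to 24 months, and 9 higher and 14 lower from 6 to 24 months.

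With 3 libraries per age, small changes of members with few reads were not detectable, and an exact permutation test of 1 gene could not go below 0.1. Fine mapping of reads shared by overlapping genes could not be varied.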
